A study of Mus musculus with 24 samples.

Results

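MC38-DKO, a line of the mouse colorectal cancer cell MC38 in which CRISPR-Cas9 targeted both Cmas and C1galt1c1 (labelled COSMC), was compared with the unmodified MC38-WT. The comparison used 6 of the 24 samples of the series, 3 of either line, and all 21488 of 52636 genes in the table that had at most 4 zeros among the 6 samples. MC38 derives from a C57BL/6 mouse. MC38-DKO was kept in puromycin and sampled at passages 4, 5 and 6, and MC38-WT was kept without puromycin and sampled at passages 7, 8 and 9. Targeting, puromycin and passage therefore cannot be told apart in this comparison. MC38-MOCK#1, which went through CRISPR-Cas9 with no target gene and was also kept in puromycin at passages 4, 5 and 6, is given beside it, as are the single knockouts MC38-CMAS KO and MC38-COSMC KO. The remaining lines, MC38-MOCK#2, MC38-FUT4 and MC38-FUT9, carry CRISPR-dCas-VPR, a system for overexpression. How MC38-DKO cells were selected, and whether the line is clonal, is not given in the sources used here. Samples of a line are passages of that line, so the p-values below measure only the spread between passages, which may be technical.

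Cmas encodes the enzyme that joins sialic acid to CMP in the nucleus, the donor form that every sialyltransferase uses. C1galt1c1 encodes Cosmc, the chaperone without which the T synthase, encoded by C1galt1, does not fold, so that O-glycans of the mucin type stay at the single sugar known as the Tn antigen. Sialylated and truncated O-glycans on tumor cells are ligands of lectins on immune cells, among them the siglecs and the macrophage galactose-type lectin.

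Values are normalized counts, reads per gene scaled by the authors for library size and composition and rounded to whole numbers. Their totals lay between 11048959 and 11687830 in the 6 samples, and the spacing left by the scaling puts the reads behind them between 6759349 (MC38-WT sample 3) and 13939779 (MC38-DKO sample 2). The label of a colon carcinoma was checked against cell type markers. The 11 markers of colon epithelium summed to 7 to 16 normalized counts in MC38-DKO and 10 to 13 in MC38-WT, with Epcam, Krt19, Cdx2 and Lgr5 at 0 in all 6 samples. Of the 6 tested, 1 rose (Vil1, at 0 in all MC38-WT samples) and 0 fell, and none averaged 10 normalized counts in either line. The 11 mesenchymal markers summed to 25965 to 34528 in MC38-DKO and 24232 to 27136 in MC38-WT, most of it Vim, and of the 10 tested 4 fell (Dcn, Pdgfrb, Col1a1 and Col1a2) and 1 rose (Cdh2), with a median log2 difference of -0.91. The 10 leukocyte markers reached at most 12 and the 5 endothelial markers at most 15 in any sample. Genes of the mitochondrial genome, among them mt-Co1 and mt-Nd1, are listed at 0 in every sample and were not tested.

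The targeted genes were examined first. Cmas (ENSMUSG00000030282; chromosome 6, 142756686 to 142775714, plus strand, GRCm38) held 142, 135 and 122 normalized counts in MC38-DKO and 388, 306 and 339 in MC38-WT. All MC38-DKO samples lay below all MC38-WT samples, and Cmas fell by 1.36 on the log2 scale (SE 0.14, adjusted p = 0.000867; limma, Benjamini-Hochberg, as for every adjusted p below). The mean of MC38-CMAS KO was 112 normalized counts, and those of the 5 other modified lines lay between 290 in MC38-FUT9 and 395 in MC38-MOCK#1. Against MC38-MOCK#1 the log2 difference of Cmas was -1.57 (adjusted p = 0.00235). Cmas was called in each fit that left out 1 sample.

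C1galt1c1 (ENSMUSG00000048970; chromosome X, 38630785 to 38635087, minus strand) held 206, 166 and 175 normalized counts in MC38-DKO and 208, 202 and 244 in MC38-WT. The lines overlapped, and the log2 difference of C1galt1c1 was -0.26 (SE 0.14, adjusted p = 0.341). Its lowest mean among the 8 lines, 144, was that of MC38-COSMC KO. The RNA level of C1galt1c1 therefore does not separate MC38-DKO from MC38-WT beyond the spread between samples, and the table carries no reads in which an edit at the target could be seen. C1galt1, the T synthase (ENSMUSG00000042460; chromosome 6, 7844842 to 7875687, plus strand), held 367, 341 and 320 against 334, 415 and 455 normalized counts, a log2 difference of -0.22 (adjusted p = 0.388).

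**Figure D1:**
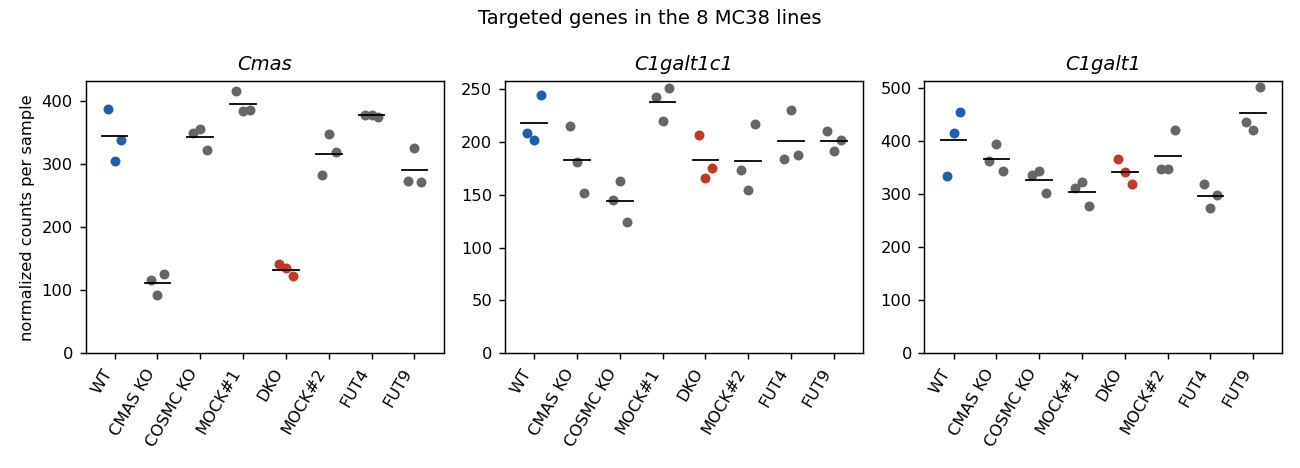
Normalized counts (y axis, from 0) of Cmas, C1galt1c1 and C1galt1 in each sample of the 8 MC38 lines (x axis); points are samples 1 to 3 from left to right and bars are means. Cmas stands at 122 to 142 in MC38-DKO (red) and 306 to 388 in MC38-WT (blue), while both lines overlap for the other genes.

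Between MC38-DKO and MC38-WT, 1621 genes were differentially expressed (DEGs; adjusted p below 0.05), 7.54% of those tested, and 4732 had an unadjusted p below 0.05. Of these, 755 (3.51%) were higher and 866 (4.03%) lower in MC38-DKO, and 1503 are protein coding. The median size of a change among DEGs was 0.92 on the log2 scale, and 753 DEGs differed by more than 1. For a gene near 0 in one line, the size of its log2 difference depends on the pseudocount of 1 added before the log. The 3 samples of each line did not overlap for 2805 genes higher and 2575 lower in MC38-DKO, 25% of the genes tested. The median log2 difference over all tested genes was 0.01. Without 1 of the samples the count of DEGs lay between 274 (without MC38-DKO sample 2) and 1096 (without MC38-WT sample 1), and 203 genes, 77 higher and 126 lower, were called in all 6 such fits. The count was 344 without MC38-DKO sample 1, 394 without MC38-DKO sample 3, 789 without MC38-WT sample 2 and 345 without MC38-WT sample 3. MC38-WT sample 3 and MC38-DKO sample 1 were the libraries with the fewest reads, and each of these fits has 5 samples. For the gene groups below, the members called in all 6 fits are named, and every other called member lost its call without at least 1 of the samples.

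**Figure D2:**
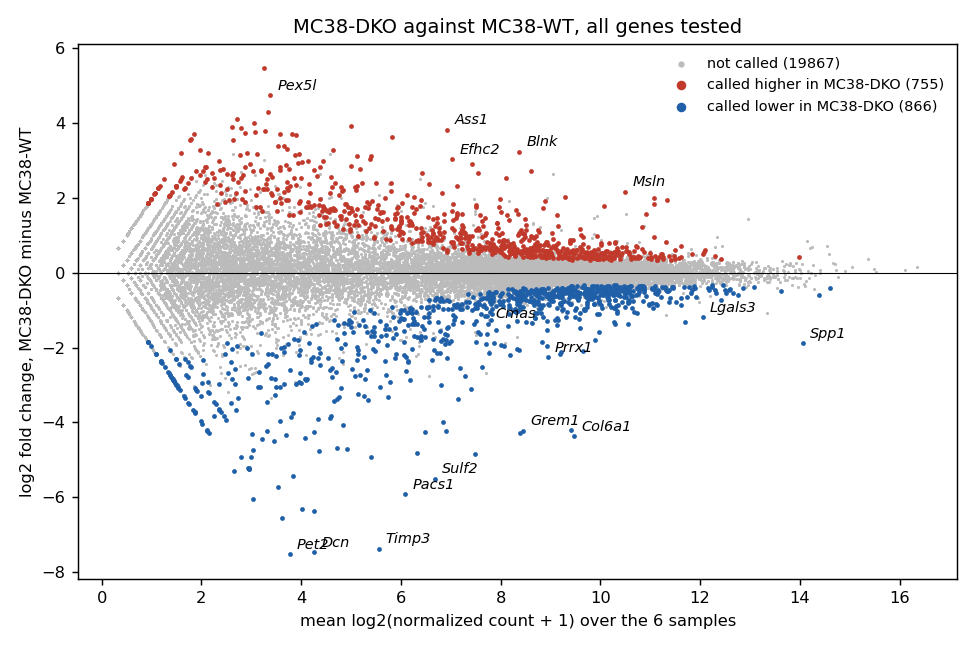
Log2 fold change of MC38-DKO minus MC38-WT (y axis) against the mean log2(normalized count + 1) of the 6 samples (x axis) for the 21488 genes tested. Colored points are the 755 genes called higher (red) and 866 called lower (blue), and the farthest labelled points, Timp3, Dcn and Pet2, lie below -7.

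Against MC38-MOCK#1, the reference of the knockout lines, far fewer genes differed. MC38-DKO against MC38-MOCK#1 gave 20 DEGs among 21738 tested genes (0.092%), 5 higher and 15 lower in MC38-DKO, with 1632 genes at an unadjusted p below 0.05. Both comparisons share the MC38-DKO samples, and the difference between them is the comparison of MC38-MOCK#1 with MC38-WT, which gave 1192 DEGs, 608 higher and 584 lower in MC38-MOCK#1. MC38-CMAS KO against MC38-WT gave 51 DEGs and MC38-COSMC KO against MC38-WT gave 127, both with puromycin and passages 4 to 6 on one side only, and 2325 and 3100 genes had an unadjusted p below 0.05. MC38-DKO differed from MC38-CMAS KO at 1515 genes and from MC38-COSMC KO at 2838. Among the 1621 DEGs, the 6 samples of MC38-DKO and MC38-MOCK#1 together lay outside the range of the other 18 samples on the side of the call for 220 genes above and 117 below. MC38-DKO alone lay outside the range of the other 21 samples for 65 genes above and 76 below. These counts were taken only among genes already called against MC38-WT. The share over all tested genes was not computed, so they do not show a state particular to these lines. The count of 20 fell in each fit with a sample left out, which has 5 samples. It was 5 without MC38-DKO sample 3, 1 without MC38-MOCK#1 sample 2 and 0 without any 1 of the other 4. In those 4 fits, 1488 to 2038 genes had an unadjusted p below 0.05, against 1632 in the full fit. Whether single samples carried the calls was not tested.

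Of 15 tested genes of sialic acid synthesis and activation, 4 fell and 0 rose (26.7% called, against 7.54% of all genes), with a median log2 difference of -0.15. Renbp, which binds renin and interconverts N-acetylglucosamine and N-acetylmannosamine, held 149, 124 and 123 normalized counts in MC38-DKO and 441, 596 and 488 in MC38-WT. The groups did not overlap, and Renbp fell by 1.93 (SE 0.15, adjusted p = 0.0002). MC38-MOCK#1 averaged 182 for Renbp, closer to MC38-DKO than to MC38-WT. Gnpnat1, which acetylates glucosamine 6-phosphate on the way to UDP-N-acetylglucosamine, fell by 0.87 (adjusted p = 0.00765), and Casd1, which O-acetylates sialic acid, fell by 0.74 (adjusted p = 0.0173). Cmas and Renbp were called in all 6 fits with a sample left out.

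Among 11 tested sialyltransferases and sialidases, 2 rose and 1 fell (27.3% called, against 7.54% of all genes). St3gal6, which adds sialic acid in alpha-linkage to galactose, held 226, 237 and 187 normalized counts in MC38-DKO and 110, 110 and 119 in MC38-WT. It rose by 0.93 (SE 0.15, adjusted p = 0.00711) with no overlap. St6galnac6, which acts on gangliosides, rose by 0.42 (adjusted p = 0.0451), and St3gal4, another transferase to galactose, fell by 0.65 (adjusted p = 0.0135). No gene of this list was called in all 6 fits, and 0 were called without MC38-DKO sample 1, MC38-DKO sample 2 or MC38-WT sample 3.

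For the O-glycan enzymes, 1 of 15 tested genes rose and 1 fell (13.3% called). B3gnt3, which extends core O-glycans with N-acetylglucosamine, held 502, 496 and 501 normalized counts in MC38-DKO and 200, 286 and 237 in MC38-WT, a rise of 1.06 (SE 0.14, adjusted p = 0.00278). Gcnt4, a branching enzyme of O-glycans, fell by 0.90 (adjusted p = 0.0141). In the list of fucosyltransferases and N-glycan branching, 0 of 18 rose and 2 fell (11.1% called, against 7.54% of all genes). The galactosyltransferase B4galt1 fell by 0.54 (adjusted p = 0.012) and Fut11 by 1.46 (adjusted p = 0.0361). Of 12 tested glycosphingolipid genes, 1 rose and 1 fell (16.7% called). The gene that fell, Gm2a, encodes a lysosomal activator protein of ganglioside breakdown and was at 0 in all MC38-DKO samples and at 12, 20 and 8 in MC38-WT, at least 4.44-fold lower against a floor of 3 normalized counts in each library (adjusted p = 0.00321). Gm2a alone among the genes of this paragraph was called in all 6 fits.

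Of 14 tested galectins and mucin-type glycoproteins, 2 rose and 3 fell (35.7% called, against 7.54% of all genes). Podxl, encoding the sialomucin podocalyxin, held 519, 593 and 509 normalized counts in MC38-DKO and 265, 253 and 221 in MC38-WT. It rose by 1.13 (SE 0.12, adjusted p = 0.000996) and was the member called in all 6 fits. Lgals3, encoding galectin-3, held 2518, 3062 and 2897 against 5832, 7820 and 5785, with every MC38-DKO sample below MC38-WT. It fell by 1.19 (SE 0.13, adjusted p = 0.00128), its call was lost without MC38-DKO sample 1 alone, and its mean was 2313 in MC38-MOCK#1. Lgals1, encoding galectin-1, fell by 0.50 (adjusted p = 0.0171) and the proteoglycan Sdc1 by 0.52 (adjusted p = 0.0168), while the mucin-type protein Pdpn rose by 2.28 from a low level (43, 107 and 88 against 6, 24 and 20; adjusted p = 0.0324).

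Of the gene lists examined, that of the extracellular matrix held the most DEGs. Of 45 tested matrix glycoproteins and remodelling genes, 16 fell and 1 rose (37.8% called, against 7.54% of all genes), and their median log2 difference was -0.84 against 0.01 over all genes. Timp3, an inhibitor of metalloproteases held in the matrix, stood at 5, 3 and 1 normalized counts in MC38-DKO and 519, 615 and 697 in MC38-WT. Timp3 fell by 7.38 (SE 0.38, adjusted p = 2.28e-05). Dcn, encoding the small proteoglycan decorin, stood at 0, 2 and 0 against 129, 417 and 304 (adjusted p = 0.0002). Sparc, a collagen-binding glycoprotein, held 389, 372 and 410 against 1718, 1816 and 1485 and fell by 2.09 (SE 0.10, adjusted p = 2.28e-05). For none of these 3 genes did the lines overlap. Fbln1, encoding fibulin-1, was at 0 in all MC38-DKO samples and at 22, 56 and 47 in MC38-WT, at least 13.9-fold lower (adjusted p = 0.000562). Sparc, Dcn, Timp3 and Fbln1 were among the members called in all 6 fits, and the 17 calls of the list dropped to 5 without MC38-DKO sample 1 or MC38-WT sample 3.

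The other matrix genes that fell include the fibulins Fbln2 (-2.26, adjusted p = 0.00758) and Fbln5 (-1.47, adjusted p = 0.0183), the metalloproteases Mmp2 (-3.83, adjusted p = 0.0101), Mmp9 (-2.82, adjusted p = 0.04), Mmp14 (-0.84, adjusted p = 0.0134) and Mmp19 (-2.60, adjusted p = 0.0164), and the adhesive glycoprotein Thbs1 (-2.36, adjusted p = 0.00182). Spp1, encoding osteopontin, was the most abundant of them, with 13239, 7019 and 7546 normalized counts in MC38-DKO and 17611, 54967 and 36417 in MC38-WT. Spp1 fell by 1.88 (SE 0.38, adjusted p = 0.0195); its lowest MC38-WT sample, that of passage 7, lay above the highest MC38-DKO sample. Mmp2, Mmp9 and Mmp19 averaged 0.667, 3.33 and 4.67 normalized counts in MC38-DKO, against 23, 35.3 and 37.7 in MC38-WT. The sizes of their log2 differences therefore depend on the pseudocount. Nid2, encoding the basement membrane protein nidogen-2, was the member that rose, by 0.78 (adjusted p = 0.0143). Fn1, encoding fibronectin, held 8826, 7024 and 6022 against 9894, 26791 and 13078 and did not pass the test (log2 difference -1.07, adjusted p = 0.0727).

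Of 24 tested collagens, 7 fell and 2 rose (37.5% called, against 7.54% of all genes). Both chains of collagen VI that are encoded side by side on chromosome 10 were lower. Col6a1 held 288, 110 and 118 normalized counts in MC38-DKO and 2042, 5160 and 3199 in MC38-WT, a fall of 4.37 (SE 0.40, adjusted p = 0.000492). Col6a2 held 159, 58 and 46 against 926, 2416 and 1437, a fall of 4.28 (SE 0.46, adjusted p = 0.00106). Col6a3, the third chain, encoded on chromosome 1, held 141, 121 and 228 against 2311, 4034 and 2704 and fell by 4.21 (SE 0.25, adjusted p = 4.56e-05). The falls of the 3 chains lay between 4.21 and 4.37. Col1a2 (-2.83, adjusted p = 0.0119) and Col1a1 (-1.68, adjusted p = 0.0337) of collagen I fell too, as did Col5a1 (-0.72, adjusted p = 0.00724) and Col16a1 (-0.84, adjusted p = 0.0112). Col4a6 of basement membranes rose by 2.40 (adjusted p = 0.00507) and Col8a1 by 1.65 (adjusted p = 0.0226). Col6a1 and Col6a3 were called in all 6 fits, and they were the 2 collagens still called without MC38-WT sample 3.

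**Figure D3:**
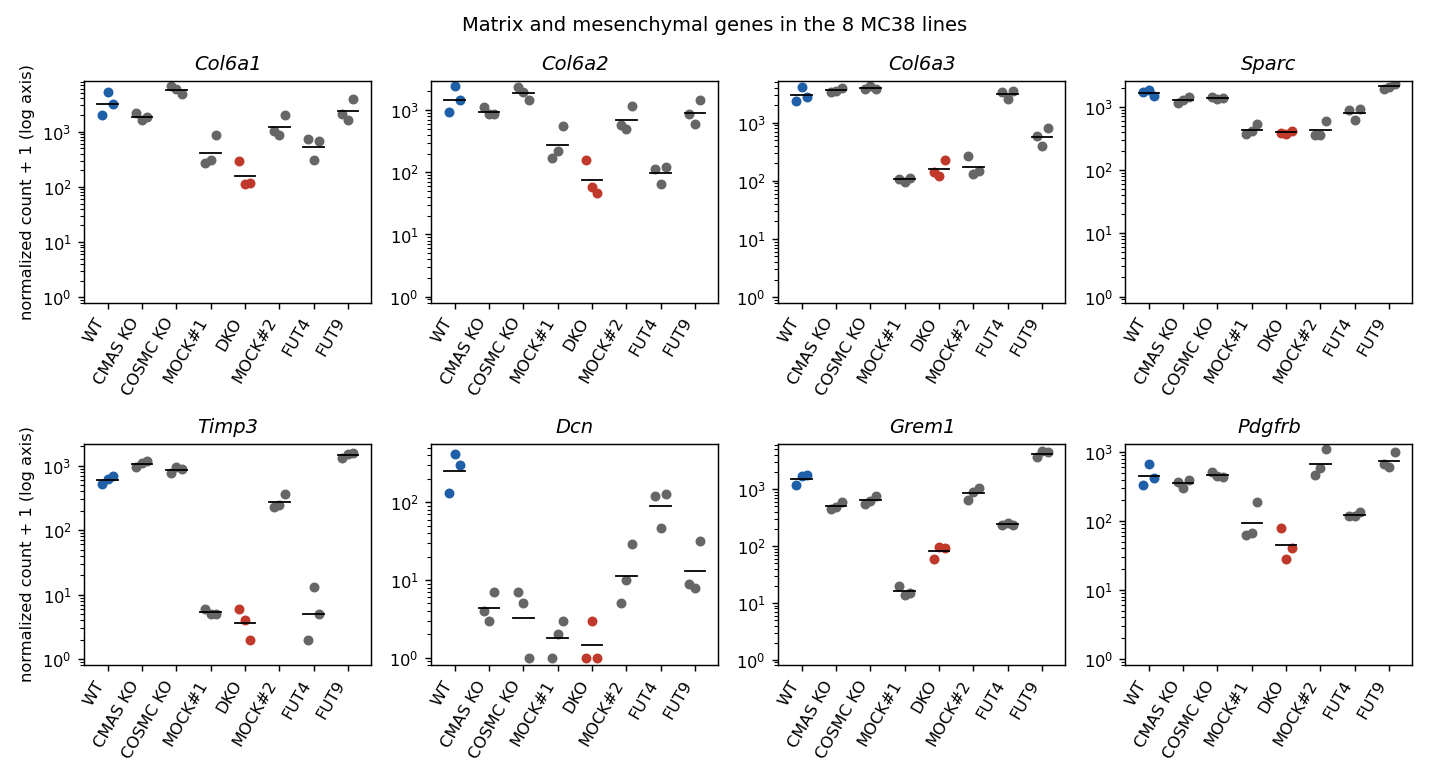
Normalized count + 1 (y axis, log scale) of 8 matrix and mesenchymal genes in each sample of the 8 lines (x axis); points are samples and bars are geometric means. MC38-DKO (red) lies below MC38-WT (blue) for all 8 genes, and MC38-MOCK#1 lies close to MC38-DKO for Timp3, at 1 to 5 normalized counts in MC38-DKO and a mean of 4.33 in MC38-MOCK#1.

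The other lines differed in which of these genes were low. Timp3 averaged 4.33 normalized counts in MC38-MOCK#1 and 5.67 in MC38-FUT4, but 1085 in MC38-CMAS KO, 860 in MC38-COSMC KO and 1481 in MC38-FUT9. Col6a3 averaged 105 in MC38-MOCK#1 and 178 in MC38-MOCK#2, against 3962 in MC38-COSMC KO. Dcn averaged 3.67 in MC38-CMAS KO and 3.33 in MC38-COSMC KO, against 283 in MC38-WT. MC38-DKO against MC38-MOCK#1 gave log2 differences of -0.55 for Timp3 (adjusted p = 0.82), 0.59 for Col6a3 (adjusted p = 0.58) and -1.41 for Col6a1 (adjusted p = 0.516), none past the threshold.

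Integrins, the cell surface receptors of matrix proteins, changed in both directions. Of 14 tested, 2 were higher and 3 lower (35.7% called, against 7.54% of all genes). Itgb8, whose product activates latent TGF-beta, stood at 0, 0 and 1 normalized counts in MC38-DKO and 24, 79 and 55 in MC38-WT. Itgb8 fell (adjusted p = 0.00109) and was called in all 6 fits. Itga6, the laminin receptor chain, held 1479, 1446 and 1199 against 769, 647 and 656 and rose by 0.99 (SE 0.12, adjusted p = 0.00149). Itga7, also a laminin receptor chain, rose by 1.25 (adjusted p = 0.0304), while the fibronectin receptor chain Itga5 fell by 0.62 (adjusted p = 0.0181), and Itgb2, the chain of leukocyte integrins, fell by 2.01 (adjusted p = 0.0418).

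Transcription factors of the mesenchymal state and cadherins were examined as another list. Of its 24 tested genes, 3 fell and 1 rose (16.7% called, against 7.54% of all genes). Prrx1, a homeobox factor of mesenchyme, held 204, 239 and 231 normalized counts in MC38-DKO and 914, 1182 and 1147 in MC38-WT, a fall of 2.26 (SE 0.13, adjusted p = 3.42e-05). Zeb1, a repressor of epithelial genes, held 108, 102 and 113 against 317, 371 and 324 and fell by 1.64 (SE 0.13, adjusted p = 0.000239). Snai1, another such repressor, fell by 0.97 (adjusted p = 0.0139). The rise was that of Cdh2, encoding N-cadherin, which held 449, 474 and 483 against 172, 187 and 167 (1.41, SE 0.11, adjusted p = 0.000207). Prrx1, Zeb1 and Cdh2 showed no overlap and were called in all 6 fits. Pdgfrb, a growth factor receptor of stromal cells, held 77, 27 and 39 against 336, 668 and 421 and fell by 3.36 (SE 0.37, adjusted p = 0.00117), a call lost without MC38-WT sample 3. Vim, encoding vimentin, held 24509, 33315 and 27765 against 25775, 23001 and 22334, with overlap (0.26, adjusted p = 0.293). In a bulk culture, fewer cells with a gene and less of its RNA in each cell cannot be told apart.

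In the BMP and TGF-beta pathway, 5 of 36 tested genes fell and 2 rose (19.4% called, against 7.54% of all genes). Grem1, a secreted antagonist of BMP ligands, held 59, 95 and 92 normalized counts in MC38-DKO and 1161, 1697 and 1766 in MC38-WT. It fell by 4.22 (SE 0.22, adjusted p = 2.28e-05) and was called in all 6 fits. Grem1 is also a DEG against MC38-MOCK#1 in the opposite direction, with 19, 13 and 14 normalized counts there (2.33 higher in MC38-DKO, adjusted p = 0.027). Of the signal transducers, Smad1 fell by 0.76 (adjusted p = 0.00819) and Smad3 by 0.66 (adjusted p = 0.0251). Inhba, the activin A subunit, fell by 2.55 (adjusted p = 0.0102) and Fstl1, a follistatin-like protein, by 0.55 (adjusted p = 0.0399). Ltbp1, which holds latent TGF-beta in the matrix, rose by 0.82 (adjusted p = 0.00287), and Bmp4, a BMP ligand, rose from 1, 0 and 0 to 6, 6 and 4 (adjusted p = 0.0289). Without MC38-DKO sample 2 or MC38-WT sample 3, 1 call of the list was left.

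Of 30 tested Wnt pathway genes, 2 rose and 2 fell (13.3% called, against 7.54% of all genes), and 20 had a negative log2 difference (median -0.20). The ligand Wnt5a stood at 2, 2 and 0 normalized counts in MC38-DKO and 16, 24 and 22 in MC38-WT (-3.36, adjusted p = 0.0082). The antagonist Dkk2 was at 0 in all MC38-DKO samples and at 2, 13 and 10 in MC38-WT, at least 2.78-fold lower (adjusted p = 0.0266). Rnf43, a ligase that removes Wnt receptors, rose by 1.79 (33, 41 and 26 against 12, 7 and 8; adjusted p = 0.0206), and Lgr6, a receptor of R-spondins, rose by 2.62 from 4, 2 and 0 to 12, 17 and 14 (adjusted p = 0.0378). None of these 4 was called in all 6 fits, and 0 genes of the list were called without MC38-DKO sample 1, MC38-DKO sample 2, MC38-WT sample 2 or MC38-WT sample 3.

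Since sialylated and truncated glycans are read by immune cells, genes through which tumor cells address the immune system were examined next. Of 24 tested genes of MHC class I and peptide loading, 1 rose and 0 fell (4.17% called, against 7.54% of all genes), with a median log2 difference of 0.25. The gene that rose was Nlrc5, the transactivator of MHC class I genes, with 344, 321 and 337 normalized counts in MC38-DKO and 56, 184 and 92 in MC38-WT (1.75, SE 0.35, adjusted p = 0.0183). Nlrc5 averaged 355 in MC38-MOCK#1. The class I heavy chain H2-K1 held 6150, 5456 and 5716 against 3432, 5614 and 4286, with overlap (0.41, adjusted p = 0.173). H2-D1 had a log2 difference of 0.33 (adjusted p = 0.271) and the light chain B2m 0.39 (adjusted p = 0.27). Reads of the H2 genes can be split among near-identical copies, so their values are uncertain. The call of Nlrc5 was lost in each of the 6 fits but the one without MC38-WT sample 2, where 3 genes of the list were called higher.

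Interferon-stimulated genes were lower by sign but varied between samples of MC38-WT. Of 51 tested, 44 had a negative log2 difference and the median was -0.50, yet 1 passed the test (1.96%, against 7.54% of all genes). That gene was Oasl1, of the 2',5'-oligoadenylate synthetase family, with 401, 198 and 168 normalized counts in MC38-DKO and 446, 1509 and 955 in MC38-WT (-1.86, SE 0.43, adjusted p = 0.0346). Isg15, a ubiquitin-like modifier, held 192, 80 and 67 against 121, 949 and 298 (-1.68, adjusted p = 0.171). Ifit1, which binds foreign RNA, held 93, 25 and 29 against 57, 336 and 214 (-1.95, adjusted p = 0.115). In both genes MC38-WT sample 1 lay within or below the range of MC38-DKO, and MC38-WT sample 2 was the highest. Rsad2, encoding viperin, showed the same order, with 369, 117 and 65 against 132, 1335 and 786 (-1.87, adjusted p = 0.228). The call of Oasl1 was lost in each of the 6 fits but the one without MC38-WT sample 1. In the list of interferon receptors, JAK-STAT and SOCS genes, 2 of 25 fell, Stat5b by 0.50 (adjusted p = 0.0298) and Stat6 by 0.40 (adjusted p = 0.0367), and 0 rose (8% called, against 7.54% of all genes).

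**Figure D4:**
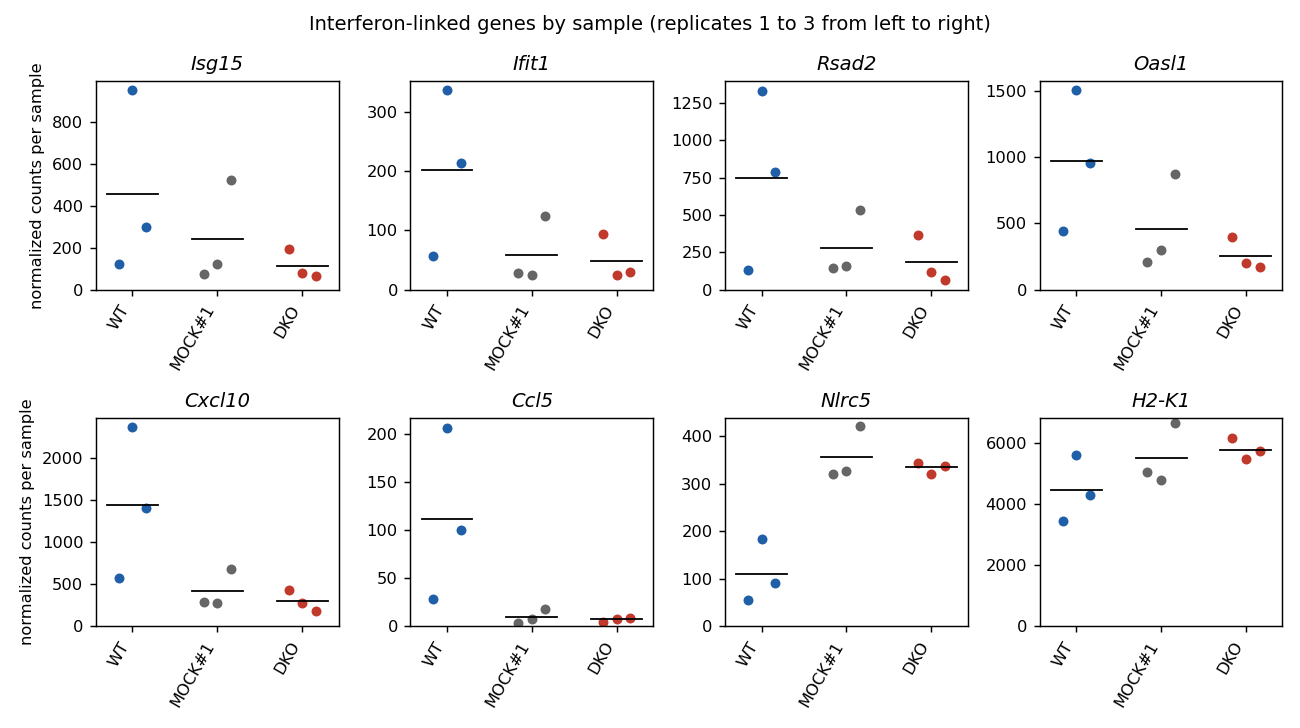
Normalized counts per sample (y axis, from 0) of 8 interferon-linked genes in MC38-WT (blue), MC38-MOCK#1 (grey) and MC38-DKO (red); bars are means and samples 1 to 3 run from left to right. MC38-WT sample 2 is the highest for Isg15, Ifit1, Rsad2, Oasl1, Cxcl10 and Ccl5, and Nlrc5 is higher in every MC38-DKO sample (321 to 344) than in MC38-WT (56 to 184).

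Chemokines and cytokines held 5 genes that fell and 1 that rose among 24 tested (25% called, against 7.54% of all genes). Ccl7, which attracts monocytes, held 22, 17 and 19 normalized counts in MC38-DKO and 93, 185 and 140 in MC38-WT, and fell by 2.74 (SE 0.29, adjusted p = 0.000995), a call made in all 6 fits. Cxcl10, which attracts T cells through Cxcr3, held 434, 276 and 187 against 570, 2366 and 1400 and fell by 2.13 (SE 0.47, adjusted p = 0.0274). Ccl5, which attracts T cells and monocytes, held 5, 8 and 9 against 28, 207 and 100 and fell by 3.38 (SE 0.63, adjusted p = 0.0141). As with the interferon-stimulated genes, MC38-WT sample 1 was the lowest of its line for both. Csf1, the growth factor of macrophages, fell by 0.92 (adjusted p = 0.0399) and the monocyte chemokine Ccl2 by 0.82 (adjusted p = 0.0461). The rise was that of Tslp, at 3, 2 and 3 against 0, 0 and 0, which is at the floor of 3 and is given no fold. The 6 calls dropped to 1, that of Ccl7, without MC38-DKO sample 1, MC38-DKO sample 2 or MC38-WT sample 2. Of 18 immune checkpoint and co-stimulatory ligands, 0 were called by limma, and 4 had an unadjusted p below 0.05.

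Cell death effectors held 2 genes that rose and 2 that fell among 23 tested (17.4% called, against 7.54% of all genes). Gsdme, a gasdermin that forms pores once cut by caspase-3, held 333, 384 and 308 normalized counts in MC38-DKO and 114, 72 and 109 in MC38-WT (1.81, SE 0.19, adjusted p = 0.00106). Ripk3, the kinase of necroptosis, held 184, 211 and 204 against 62, 80 and 60 and rose by 1.56 (SE 0.17, adjusted p = 0.00119). For neither gene did the lines overlap, Ripk3 was called in all 6 fits, and Gsdme lost its call without MC38-DKO sample 1 alone. Ripk3 was higher still in MC38-MOCK#1, with a mean of 369, and was lower in MC38-DKO by 0.88 in that comparison (adjusted p = 0.0215). Aim2, a sensor of cytosolic DNA, fell by 0.82 (adjusted p = 0.0123) and Mcl1, a Bcl-2 family survival protein, by 0.41 (adjusted p = 0.0291).

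The list of ER stress and amino acid response genes held 10 genes that fell and 0 that rose among 32 tested (31.2% called, against 7.54% of all genes), and 29 of the 32 had a negative log2 difference (median -0.38). Slc7a11, the cystine transporter, held 1068, 686 and 654 normalized counts in MC38-DKO and 1651, 2218 and 2283 in MC38-WT, a fall of 1.37 (SE 0.19, adjusted p = 0.00411). Pck2, the mitochondrial PEP carboxykinase, held 811, 667 and 896 against 1539, 2701 and 1786 and fell by 1.31 (SE 0.20, adjusted p = 0.00525). Both genes showed no overlap between lines. Atf4, the transcription factor of the amino acid response, held 5926, 5102 and 5239 against 7186, 8887 and 7445, a fall of 0.53 (adjusted p = 0.0211). The folate enzymes Shmt2 and Mthfd2 fell by 0.60 (adjusted p = 0.0105) and 0.40 (adjusted p = 0.0206), the asparagine synthetase Asns by 0.38 (adjusted p = 0.0418) and the ER protein Herpud1 by 0.43 (adjusted p = 0.0214). Pdia6, Aldh18a1 and Cth are the other members that fell. Without MC38-DKO sample 2 or MC38-WT sample 3, 0 genes of the list were called, and at most 4 without any other sample.

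Atf4 binds, with C/EBP partners, an element read as TGATGNAA. The 250 bases before the start site were searched on both strands in RefSeq promoters of GRCm38.p6. Of the 10 genes that fell, 9 had a promoter and 4 of these held the element. Of the 28 list genes with a promoter 8 held it, against 3.91% of 27025 genes in all. The list was chosen for the amino acid response, whose transcription factor is Atf4, so this share is no result of these data. The other members with the element, Atf3, Chac1, Fgf21 and Vldlr, were not called. Only the 4 promoters of members that fell are shown, with the element in capitals. They lie at chr6:7693210-7693459 (Asns, minus strand), chr8:94386179-94386428 (Herpud1, plus), chr14:55540016-55540265 (Pck2, plus) and chr3:50443614-50443863 (Slc7a11, minus).
Asns: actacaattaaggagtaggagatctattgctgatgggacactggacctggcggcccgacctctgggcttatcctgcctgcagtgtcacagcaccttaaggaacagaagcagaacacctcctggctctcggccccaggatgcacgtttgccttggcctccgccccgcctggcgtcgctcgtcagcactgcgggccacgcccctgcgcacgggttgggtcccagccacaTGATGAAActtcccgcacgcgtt
Herpud1: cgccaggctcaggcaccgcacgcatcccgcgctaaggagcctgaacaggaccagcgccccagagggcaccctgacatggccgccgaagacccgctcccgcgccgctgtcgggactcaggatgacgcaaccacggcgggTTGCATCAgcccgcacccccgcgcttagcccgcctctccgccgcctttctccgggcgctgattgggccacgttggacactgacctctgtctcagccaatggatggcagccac
Pck2: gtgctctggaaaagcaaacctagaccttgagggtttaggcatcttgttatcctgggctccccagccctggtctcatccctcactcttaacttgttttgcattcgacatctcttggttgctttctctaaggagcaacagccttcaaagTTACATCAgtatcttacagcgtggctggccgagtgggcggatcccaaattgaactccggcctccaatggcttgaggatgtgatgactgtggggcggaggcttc
Slc7a11: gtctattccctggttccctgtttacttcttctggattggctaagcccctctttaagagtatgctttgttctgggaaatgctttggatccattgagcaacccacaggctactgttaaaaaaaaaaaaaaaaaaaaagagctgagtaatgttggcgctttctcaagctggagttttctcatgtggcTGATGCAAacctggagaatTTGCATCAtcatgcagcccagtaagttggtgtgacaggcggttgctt
Counted back from -1 at the last base before the start site, the element begins at -23 in Asns, -112 in Herpud1 and -103 in Pck2. Slc7a11 holds it at -66 and -47, on opposite strands. A match describes these letters only, and binding of Atf4 was not measured.

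Genes of glycolysis and the hypoxia response held 6 that fell and 0 that rose among 36 tested (16.7% called, against 7.54% of all genes). Slc16a3, the lactate exporter, held 2109, 2409 and 2521 normalized counts in MC38-DKO and 3840, 5171 and 3776 in MC38-WT, a fall of 0.85 (SE 0.13, adjusted p = 0.0065). Ero1l, an oxidase of the ER, fell by 1.05 (adjusted p = 0.0112), and Pdk1, which inhibits pyruvate dehydrogenase, fell by 0.73 (adjusted p = 0.0135). The glycolytic enzymes Pfkm and Eno1 fell by 0.57 (adjusted p = 0.0158) and 0.41 (adjusted p = 0.0399), and the oxygen sensor Egln1 by 0.44 (adjusted p = 0.0488). None of the list was called without any 1 of the MC38-DKO samples or without MC38-WT sample 3.

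Among growth-related lists, 4 of 33 MAPK feedback and immediate early genes fell and 0 rose (12.1% called, against 7.54% of all genes). Myc held 926, 1119 and 1584 normalized counts in MC38-DKO and 2138, 3325 and 2144 in MC38-WT, a fall of 1.07 (SE 0.22, adjusted p = 0.0204). Dusp2, a phosphatase of MAP kinases, fell by 1.59 (adjusted p = 0.0255), Phlda1 by 1.19 (adjusted p = 0.0287) and the AP-1 subunit Fosl2 by 0.85 (adjusted p = 0.0288). Egr1 ranged from 934 to 8526 within MC38-WT and was not called (-1.14, adjusted p = 0.409). Of 40 cell cycle genes, 4 fell and 0 rose (10% called), against 4.03% lower among all genes. Ccne1, encoding cyclin E1, held 198, 202 and 181 against 370, 353 and 355 and fell by 0.89 (SE 0.11, adjusted p = 0.00236), and was called in all 6 fits. E2f1 (-0.49, adjusted p = 0.0191), Ccnd1 (-0.37, adjusted p = 0.0311) and Cdk2 (-0.35, adjusted p = 0.0437) fell by less. Of the MAPK list 0 were called without MC38-DKO sample 1 or 2 or without MC38-WT sample 2 or 3, and 9 were called lower without MC38-WT sample 1.

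Of 26 tested p53 targets, 2 rose and 1 fell (11.5% called, against 7.54% of all genes). Tigar, which lowers glycolytic flux, and Ccng1, encoding cyclin G1, rose by 0.41 (adjusted p = 0.0345) and 0.47 (adjusted p = 0.0487). Eda2r, a receptor of the TNF receptor family, held 34, 35 and 17 normalized counts against 98, 160 and 127 and fell by 2.16 (adjusted p = 0.00486). Cholesterol and fatty acid synthesis held 1 gene that rose and 1 that fell among 34 tested (5.88% called, below the 7.54% of all genes). The gene that fell was the desaturase Scd2 (-0.60, adjusted p = 0.0231). Neither list kept a call in all 6 fits.

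Oxidative stress and drug handling genes held 4 that rose and 3 that fell among 28 tested (25% called, against 7.54% of all genes). The transporters Abcb1a and Abcb1b, the mouse genes of P-glycoprotein, rose by 0.63 (adjusted p = 0.0427) and 0.72 (adjusted p = 0.0125). Abcb1b held 1945, 2310 and 2262 normalized counts in MC38-DKO and 1422, 1089 and 1478 in MC38-WT, and the lines did not overlap. The transporter Abcc4 rose by 0.55 (adjusted p = 0.013), and Aldh1a1, a retinal dehydrogenase, rose from 1, 2 and 0 to 19, 13 and 10 (adjusted p = 0.0137). The glutathione transferase Gsta4 fell to 310, 213 and 180 from 550, 613 and 560 (adjusted p = 0.00367), its relative Gstm1 fell by 0.65 (adjusted p = 0.0369), and the heme oxygenase Hmox1 by 0.54 (adjusted p = 0.0362). MC38-DKO was kept in puromycin and MC38-WT was not, and the part of the drug in these differences was not tested. None of the 7 was called in all 6 fits, and 0 were called without MC38-DKO sample 2 or MC38-WT sample 3.

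Imprinted genes, which are expressed from one parental allele, held 3 that rose and 3 that fell among 14 tested (42.9% called, against 7.54% of all genes). Plagl1, a zinc finger factor, held 307, 259 and 194 normalized counts in MC38-DKO and 62, 63 and 84 in MC38-WT (1.84, SE 0.21, adjusted p = 0.00137) and was called in all 6 fits. Zrsr1, a splicing factor gene, stood at 45, 27 and 28 against 2, 2 and 0 and rose by 4.01 (adjusted p = 0.00365). Snrpn stood at 37, 33 and 35 against 0, 5 and 2 and rose by 3.78 (adjusted p = 0.00852), a value that is uncertain because its transcripts also encode Snurf. MC38-MOCK#1 averaged 25.3 for Zrsr1 and 27 for Snrpn, and each other line averaged below 4 for both. H19, a noncoding RNA, was at 0 in MC38-DKO and at 4, 10 and 5 in MC38-WT, at least 2.11-fold lower (adjusted p = 0.0125). Igf2r, which clears Igf2, fell by 0.77 (adjusted p = 0.0139) and Phlda2 by 1.05 (adjusted p = 0.0153).

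Of 31 tested Hox genes, which set position along the body axis, 3 rose and 0 fell (9.68% called, against 7.54% of all genes). Hoxc10 held 98, 99 and 83 normalized counts in MC38-DKO and 10, 14 and 15 in MC38-WT, a rise of 2.77 (SE 0.27, adjusted p = 0.000696), and was called in all 6 fits. Hoxb8 rose by 1.38 (94, 72 and 70 against 23, 34 and 32; adjusted p = 0.0135) and Hoxb9 by 0.88 (adjusted p = 0.0208). Means in MC38-MOCK#1 were 73 for Hoxc10, 90.7 for Hoxb8 and 189 for Hoxb9.

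**Figure D5:**
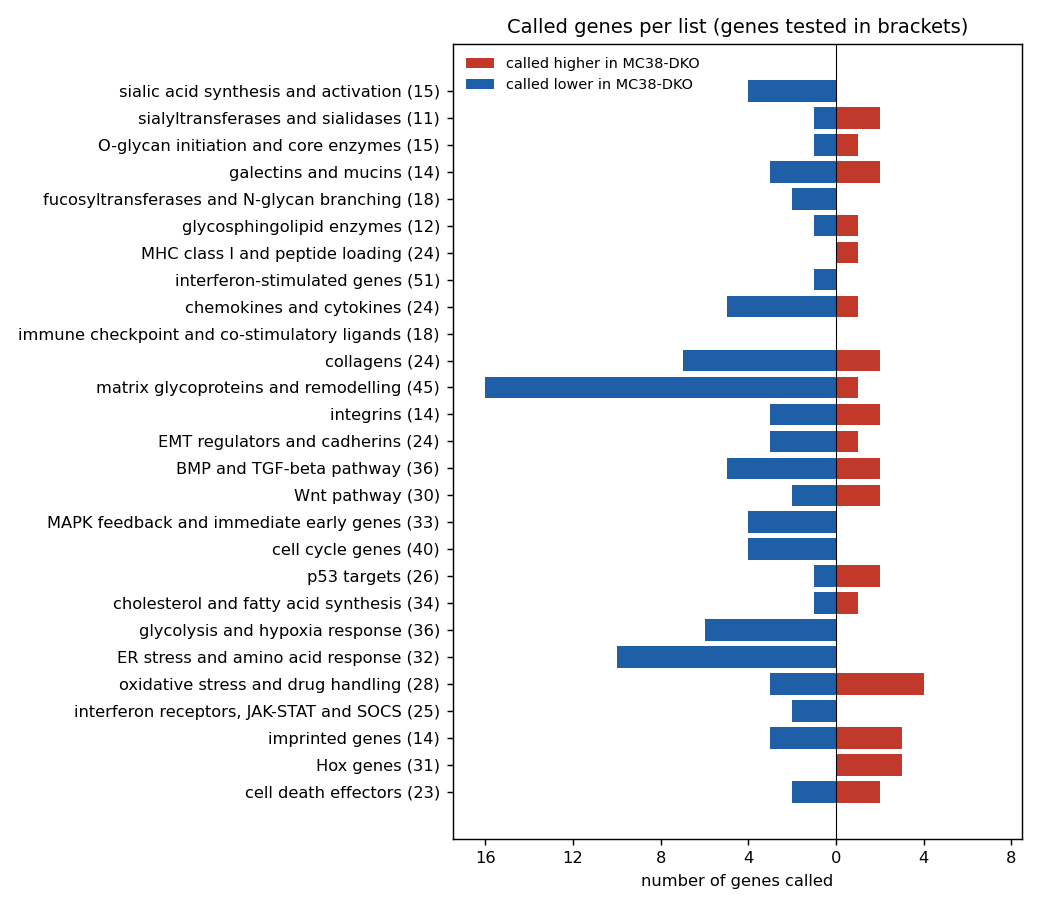
Number of genes called higher (red, to the right) and lower (blue, to the left) in MC38-DKO for each gene list, with the number of genes tested in brackets. The matrix list has the longest bar, with 16 of 45 genes lower, followed by ER stress and amino acid response with 10 of 32 lower.

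The largest changes over all protein coding genes were ranked among DEGs without overlap and with at least 50 normalized counts in the higher line, of which 539 rose and 705 fell. Pacs1, a sorting protein between the endosome and the Golgi, held 11, 6 and 7 normalized counts in MC38-DKO and 554, 590 and 452 in MC38-WT. Pacs1 fell by 5.92 (SE 0.25, adjusted p = 1.83e-05) and averaged 117 in MC38-MOCK#1, against which it was lower by 3.74 (adjusted p = 0.00325). Sulf2, a sulfatase that edits heparan sulfate, held 8, 22 and 16 against 661, 898 and 562 and fell by 5.51 (SE 0.33, adjusted p = 4.56e-05). Pet2 was at 0 in all MC38-DKO samples and at 135, 200 and 232 in MC38-WT, at least 63-fold lower (adjusted p = 2.28e-05). Stxbp2, of vesicle fusion, stood at 0, 2 and 2 against 170, 177 and 171, and the scavenger receptor Colec12 at 0, 1 and 2 against 129, 158 and 145. The phospholipase Plcb1 stood at 0, 1 and 0 against 65, 146 and 171. Pet2, Stxbp2, Colec12 and Plcb1 were near 0 in MC38-MOCK#1 too, with means from 1.67 for Colec12 to 4.67 for Plcb1. Magea5, of a family of near-identical copies, was at 0 against 52, 71 and 75 (at least 22-fold lower, uncertain for that reason), while Hspa12b fell by 5.73 and Ngef fell by 5.45. All falls named in this group were called in the 6 fits with a sample left out. In all, 27 genes were at 3 normalized counts or fewer in every MC38-DKO sample and averaged at least 30 in MC38-WT.

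Among the largest rises, Ass1, the argininosuccinate synthase of arginine synthesis, held 400, 510 and 475 normalized counts in MC38-DKO and 41, 27 and 28 in MC38-WT. Ass1 rose by 3.83 (SE 0.20, adjusted p = 2.28e-05), or 14.2-fold, and averaged 338 in MC38-MOCK#1. Blnk, an adaptor of B cell receptor signaling, held 876, 1233 and 963 against 135, 99 and 90 and rose by 3.24 (SE 0.18, adjusted p = 3.42e-05). Ovol2, a repressor of mesenchymal genes in epithelia, held 159, 205 and 239 against 24, 11 and 13 and rose by 3.63 (SE 0.31, adjusted p = 0.000365). Slc52a3, a riboflavin transporter, held 142, 125 and 107 against 6, 8 and 8 (3.91, SE 0.28, adjusted p = 0.00014). For each of these 4 genes the lowest MC38-DKO sample was several times the highest MC38-WT sample, and each was called in all 6 fits. Sphk1, which makes sphingosine 1-phosphate, rose by 3.70 (adjusted p = 0.00282), and Tspan7, Efhc2, Wfdc1, Tmem171 and Plscr2 rose by 2.98 (Plscr2) to 3.70 (Tmem171).

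Pex5l, a relative of the peroxisomal import receptor, had the largest rise of the ranked protein coding genes, at 56, 61 and 43 normalized counts in MC38-DKO and 1, 3 and 0 in MC38-WT (4.75, SE 0.55, adjusted p = 0.00144). It averaged 12 in MC38-MOCK#1 and 123 in MC38-FUT4, and lost its call without MC38-DKO sample 1. In all, 6 genes were at 3 or fewer in every MC38-WT sample and at a mean of at least 30 in MC38-DKO. Besides Pex5l, those with the highest means were Zrsr1, Tmem125 (34, 46 and 54 against 2, 0 and 3), Gm9712 (54, 63 and 73 against 0, 0 and 2) and Gm10012, a pseudogene at 12, 102 and 0 that did not pass the test.

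Genes called between MC38-DKO and MC38-MOCK#1 complete the comparison. Vcam1, an adhesion molecule for leukocytes, held 232, 271 and 242 normalized counts in MC38-DKO, 766, 1007 and 1281 in MC38-MOCK#1 and 979, 935 and 962 in MC38-WT. Vcam1 was lower in MC38-DKO by 2.00 (adjusted p = 0.00423) against MC38-MOCK#1 and by 1.95 (adjusted p = 2.28e-05) against MC38-WT. Cmas, Pacs1 and Vcam1 were thus among the genes lower in MC38-DKO than in both other lines. Nutm1 (3, 2 and 2 in MC38-DKO against 66, 61 and 93) and Igfbp5 (8, 4 and 3 against 88, 103 and 189) differed by -4.47 (adjusted p = 0.00325) and -4.42 (adjusted p = 0.00634) from MC38-MOCK#1. Of the genes higher in MC38-DKO, Sdc3, a syndecan, held 88, 132 and 107 against 35, 28 and 23 in MC38-MOCK#1 and 525, 344 and 365 in MC38-WT, and so lay between them, as Grem1 did. The remaining members called higher were Psd4, Mpzl3 and the pseudogene Gm4617.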

How the data were processed

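RNA of MC38-DKO, MC38-WT and, beside them, the other MC38 lines was sequenced by the study as single 50-base reads of stranded mRNA libraries. Per the methods and the labels, the authors trimmed reads, aligned them to GRCm38 with HISAT2 2.0.4, counted them per gene with featureCounts (Subread 1.5.0-p3) and scaled them with edgeR 3.18.1 (library size and TMM). The deposited values are treated as of the unit score: scaled counts that the authors rounded, not raw counts. Count models were therefore not used. Whether the counting used strand is not given in the sources used here.

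Genes with at most 4 zeros among 6 samples were tested on log2(value + 1) with limma 3.58.1 (R 4.3.3; lmFit and eBayes with a trend), with Benjamini-Hochberg adjustment over all tested genes and a threshold of 0.05. Fold changes on this scale understate changes of low genes. Simulated data of this comparison had 200 of 20949 genes changed 2-fold, all drawn from genes averaging above 50 normalized counts on the log scale. Of the 200, 126 were found and 2 others were called, so many changes of that size or less are missed. Detection among lower genes was not simulated. Reads per library were estimated from the whole numbers that scaling leaves too rare or too frequent. The 9 of 10 simulated libraries that passed a minimum fit, set after the simulation was seen and met by all libraries used, were off by at most 0.0289%. Tables and plots were made in Python 3.11.15 (pandas 2.3.3, numpy 2.4.6; figures in matplotlib 3.10.9). Symbols matched 52403 of 52636 genes.

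The comparison, the gene lists and the rules were chosen with earlier results of these data known. Named genes are the targets, the 12 largest rises and falls among protein coding DEGs without overlap and with a mean of at least 50 in the higher line, up to 4 called members and 2 others of each list, and genes at 3 or fewer in one line and at least 30 in the other. Further members and the genes of the closing section were named after their values were seen. The alternatives were pseudocounts of 0.5 and 5, other filters, scalings and fits, a stricter threshold, and leaving out each sample. A few genes that these rules name are not reported here.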

Additional observations from a re-analysis of the deposited data

How the results depend on the processing

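The count of 1621 DEGs between MC38-DKO and MC38-WT kept within 1.5 times under the other pseudocounts, filters and scalings, at 1577 to 1827. Rescaling to equal totals moved the split from 755 higher and 866 lower to 873 and 836. A single fit of all 8 lines called 3530 genes (1773 higher, 1757 lower), eBayes without a trend 713 (372 and 341), and the stricter threshold 753 (373 and 380). Leaving out each sample gave 274 to 1096 DEGs, with 102 to 435 higher and 172 to 661 lower. Same-numbered samples of the lines did not deviate together (correlations -0.22, -0.01 and -0.04 over 13525 genes, none highest with its own number). With 3 samples per line and unequal depth, this check cannot decide whether the number is a pairing. The paper describes harvests of separate passages at separate time points. Whether same-numbered samples of MC38-DKO and MC38-WT shared a time point is not given in the sources used here. With the replicate block, 2 genes were called (0 higher, 2 lower; 3685 at an unadjusted p below 0.05), Grem1 and Pnma5, and Cmas kept its value of -1.36 but not its call. For MC38-DKO against MC38-MOCK#1, the 20 DEGs became 159 (57 higher, 102 lower) in the fit of all 8 lines, 40 (14 and 26) without a trend, 0 (0 and 0; 1408 unadjusted) with the replicate block, and 0 to 5 (0 to 2 higher, 0 to 3 lower) without a sample. The cause was not tested. Without a trend the matrix list held 9 calls, the collagens 5 and the ER stress and amino acid list 0. Of 164 called genes in the text, 46 were called in each of 6 fits without a sample, 80 in each of 8 other settings and 1 with the block, and none reversed. Depth limits genes of a few normalized counts.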

Other observations

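Genes that were not in any list, named here after their values were seen, also differed between MC38-DKO and MC38-WT. Msln, encoding mesothelin, a surface protein of mesothelium and several carcinomas, held 2279, 3042 and 4147 normalized counts in MC38-DKO and 816, 628 and 620 in MC38-WT, a rise of 2.16 (SE 0.20, adjusted p = 0.000537; limma, Benjamini-Hochberg). Gatm, the first enzyme of creatine synthesis, held 904, 988 and 848 against 255, 216 and 258 and rose by 1.91 (SE 0.11, adjusted p = 4.56e-05). Afp, encoding alpha-fetoprotein, rose by 1.09 (661, 679 and 577 against 326, 228 and 356; adjusted p = 0.00554). The prolactin-like genes Prl2c2, Prl2c3 and Prl2c5 rose by 1.95 (adjusted p = 0.00133), 2.01 (adjusted p = 0.00106) and 1.62 (adjusted p = 0.0258), but are near-identical copies among which reads can be split, so their single values are uncertain.

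Other genes fell. Emilin1, an elastin-associated glycoprotein, held 82, 43 and 53 against 387, 697 and 455 and fell by 3.10 (adjusted p = 0.000414). Vasn, which binds TGF-beta, fell to 141, 136 and 129 from 504, 721 and 672 (adjusted p = 0.000117). Angptl2, a secreted angiopoietin-like protein, fell by 2.08 (adjusted p = 0.000876) and Igfbp4, which binds insulin-like growth factors, fell by 1.81 (adjusted p = 0.000141). Serpinh1, the ER chaperone of collagen, held 2100, 2021 and 2233 against 4970, 5921 and 4850 and was lower in every sample (adjusted p = 0.0002). Lrp1, an endocytic receptor of matrix proteins, fell by 2.16 (adjusted p = 0.00384), the tetraspanin Cd81 fell by 1.59 (adjusted p = 0.00048) and the transcription factor Sox9 fell by 2.05 (adjusted p = 0.00616). Ccn4, a matricellular protein, fell to 23, 44 and 57 normalized counts from 242, 476 and 276 (adjusted p = 0.00152).

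Among genes averaging at least 10 normalized counts, the log2 difference between MC38-DKO and MC38-WT varied with the chromosome. Its median was -0.21 over 486 genes of chromosome 15, where 76 genes were called lower and 19 higher, and 0.13 over 540 genes of chromosome 13, where 72 were called higher and 19 lower. The other chromosomes lay between -0.12 (chromosome 10) and 0.12 (chromosome 12). MC38-MOCK#1 minus MC38-WT gave a median of -0.21 on chromosome 15 and 0.09 on chromosome 13, and shares the MC38-WT samples. The copy number of these chromosomes was not tested.

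Of the 15 genes lower in MC38-DKO than in MC38-MOCK#1, Cops7b, Eif4e2, Gigyf2, Atg16l1, Dgkd, Usp40, Arl4c and Sh3bp4 lie close together on chromosome 1 of GRCm38, with starts from 86582904 (Cops7b) to 89070415 (Sh3bp4). Gigyf2 held 1343, 1373 and 1308 normalized counts in MC38-DKO, 2713, 3339 and 4508 in MC38-MOCK#1 and 1386, 1416 and 1433 in MC38-WT. Against MC38-WT its log2 difference was -0.07 (adjusted p = 0.647), and that of Atg16l1 was 0.00 (adjusted p = 1). Arl4c (234, 246 and 347 against 474, 879 and 605 in MC38-WT) and Dgkd (1192, 1318 and 1310 against 1764, 1852 and 1671) were also called lower than MC38-WT, with log2 differences of -1.22 (adjusted p = 0.0142) and -0.47 (adjusted p = 0.0141).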
